A study of Mus musculus with 6 samples.

Results

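BCL2 family genes decide whether a cell keeps or loses the integrity of its mitochondria, and 10 of them are described here in Foxp3-expressing regulatory T cells (Tregs), which restrain immune responses, with and without SREBP2. SREBP2, encoded by Srebf2, is the transcription factor that turns on cholesterol synthesis and uptake genes. The 10 were chosen by symbol, for what their proteins do: Bcl2, Bcl2l1 and Mcl1 restrain cell death, Bax and Bak1 carry it out, and Bad, Bid, Bcl2l11, Bmf and Bbc3 are BH3-only genes that trigger it. They are 10 of the 24421 genes in the deposited table, and all 10 passed the filter on low counts, as did 11932 genes in all. RNA-seq libraries came from Tregs purified from spleen and lymph nodes of mice. The groups were 3 Srebp2cKO libraries (replicates 6, 7 and 8, genotype Srebp2FL/FL-Foxp3YFPCRE+/-) and 3 Srebp2WT libraries (replicates 1, 3 and 5, genotype Srebp2WT/WT-Foxp3YFPCRE+/+). Cre recombinase with a yellow fluorescent protein at Foxp3 is thus present in both groups, with +/- against +/+ alleles. The Cre genotype therefore changes together with the floxed allele. Foxp3 lies on chromosome X, so the Cre dose of each cell does not follow from these labels. The labels state neither the age of the mice, nor whether animals were pooled, nor whether each library is its own animal. The p-values thus measure the spread between these libraries, which may be technical.

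The proteins of this family meet at the outer mitochondrial membrane. BAX and BAK, once activated, open that membrane and release cytochrome c, which starts the caspases. BCL2, BCL-XL (the product of Bcl2l1) and MCL1 hold them and the BH3-only proteins in check. BH3-only proteins respond to lost survival signals or to stress. In Tregs, MCL1 is known to be needed for survival, interleukin-2 to sustain it, and BIM (the product of Bcl2l11) to limit how many Tregs persist.

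Of the 10 members, Bcl2 rose to 143% and Bak1 fell to 75.2% of the Srebp2WT level in Srebp2cKO Tregs, and the other 8 did not pass. The test was the quasi-likelihood test of edgeR with p-values adjusted over all genes tested, and genes at a false discovery rate of 0.05 count as called. Over all genes, 6.61% were called, 2.37% higher and 4.24% lower, against 2 of the 10 members, 1 in each direction. No test was made of whether these 2 of 10 exceed the background. At an unadjusted p below 0.05 there were 5 members, against 29.1% of all genes, and the groups did not overlap for 5 members, against 31.5% of all genes. The median log2 fold change of the members was -0.08, against -2e-04 over all genes tested, with 3 members above 0. This direction turned when a trend of fold change with GC content, described below, was removed: the members' median was then 0.05, against -0.0033 over all genes, with 8 members above 0.

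Bcl2, the founding survival gene of the family, lies on chromosome 1 from 106538178 to 106714274 (minus strand, GRCm38). Its level was 670, 731 and 587 CPM (counts relative to library size, scaled by TMM factors) in Srebp2cKO replicates 6, 7 and 8, against 424, 459 and 503 CPM in Srebp2WT replicates 1, 3 and 5. Every Srebp2cKO library stood above every Srebp2WT library. The means were 663 ± 72.2 CPM in Srebp2cKO and 462 ± 39.6 CPM in Srebp2WT (SD, n = 3 each), a log2 fold change of 0.52 (SE 0.10, 95% interval 0.30 to 0.74, edgeR adjusted p = 0.018). In bulk RNA, more or fewer cells of a type and more or less RNA per cell cannot be told apart. The libraries held 9119, 11328 and 10069 Bcl2 counts in Srebp2cKO and 6767, 7132 and 7433 in Srebp2WT. The call was lost without Srebp2WT replicate 1 (log2 fold change 0.46, edgeR adjusted p = 0.0879) and without Srebp2WT replicate 3 (0.52, adjusted p = 0.0827), fits in which only 1.39% and 1.53% of all genes were called.

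Mcl1, which encodes a short-lived survival protein that T cells need, lies on chromosome 3 from 95658788 to 95663176. It stood at 883, 1119 and 880 CPM in Srebp2cKO, against 694, 878 and 823 CPM in Srebp2WT. The groups touched closely, since the lowest Srebp2cKO library was 880 CPM and the highest Srebp2WT library 878 CPM. The log2 fold change of 0.27 (SE 0.12, 95% interval 0.01 to 0.53) did not pass (edgeR adjusted p = 0.162). It was 0.14 without Srebp2cKO replicate 7, the library with the highest Mcl1, and 0.18 without Srebp2WT replicate 1, the one with the lowest. Bcl2l1, which encodes BCL-XL, had 37.9, 30.1 and 37.3 CPM in Srebp2cKO and 41.5, 35.9 and 37.8 CPM in Srebp2WT. Its groups overlapped, and its log2 fold change was -0.13 (95% interval -0.37 to 0.11, edgeR adjusted p = 0.449).

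Bak1, 1 of the 2 membrane-opening effectors, lies on chromosome 17 from 27019810 to 27029009 (minus strand). It stood at 37.9, 40.6 and 37.4 CPM in Srebp2cKO, against 51.1, 55.3 and 47.8 CPM in Srebp2WT. Every Srebp2cKO library lay below every Srebp2WT library. Mean levels were 38.7 ± 1.74 CPM in Srebp2cKO and 51.4 ± 3.78 CPM in Srebp2WT (SD, n = 3 each), which is 75.2% of the Srebp2WT level. In log2 terms Bak1 differed by -0.41, with an SE of 0.09 and a 95% interval of -0.61 to -0.22 (edgeR adjusted p = 0.0257). This call was lost without Srebp2WT replicate 1 (adjusted p = 0.107), Srebp2WT replicate 3 (0.112) or Srebp2cKO replicate 8 (0.0866), the last a fit that called 3.63% of all genes. Exons of 2 annotated Ggnbp1 entries on the opposite strand cover 7.35% and 18.2% of Bak1 exons, and their union was not taken. Reads of Bak1 and Ggnbp1 cannot be told apart if counting ignored strand, a setting the sources do not state. Ggnbp1 itself held 21, 26 and 7 counts in Srebp2cKO and 14, 24 and 15 in Srebp2WT, against 516 to 859 Bak1 counts.

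Bax, the other effector, whose product moves to mitochondria when activated, had 26.1, 20.97 and 24.1 CPM in Srebp2cKO and 26.9, 30.5 and 29.4 CPM in Srebp2WT. The Srebp2cKO libraries again lay below the Srebp2WT libraries, with a log2 fold change of -0.29 (SE 0.11, 95% interval -0.53 to -0.04), and the gene did not pass (edgeR adjusted p = 0.121). A predicted gene on the same strand, Gm45808, shares 12.2% of the Bax exons.

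Bid, a BH3-only gene whose protein caspase-8 cleaves into its active form, had the third smallest p among the members. It stood at 17.0, 15.03 and 16.3 CPM in Srebp2cKO, against 23.0, 21.1 and 19.1 CPM in Srebp2WT. The groups did not overlap, yet the log2 fold change of -0.39 (SE 0.11, 95% interval -0.64 to -0.14) missed the threshold (edgeR adjusted p = 0.0651). It passed at a looser false discovery rate of 0.1, where 15.9% of all genes passed. It also passed without Srebp2WT replicate 5 (edgeR adjusted p = 0.0462), a fit that called 8.97% of all genes. Bid shares 17.7% of its exons with Bcl2l13 on the opposite strand, which was tested with a log2 fold change of -0.01 (edgeR adjusted p = 0.944).

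Bcl2l11 encodes BIM, which removes T cells that lose cytokine or receive strong antigen signals. Its level was 103, 89.5 and 94.0 CPM in Srebp2cKO and 61.8, 95.5 and 90.8 CPM in Srebp2WT. The groups overlapped, with Srebp2WT replicate 1 alone at the low end. In log2 terms it differed by 0.21, with an SE of 0.14 and a 95% interval of -0.11 to 0.52 (edgeR adjusted p = 0.353), and 0.038 without that library, which also held the highest B cell and myeloid marker sums (79.5 and 86.4 CPM). Their part in this value was not tested. Within Srebp2WT, the coefficient of variation of Bcl2l11 was 22.1%, against a median of 6.27% over the 200 genes of closest mean level.

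Bmf, a BH3-only gene whose product binds dynein light chains of the motor complex, was the most variable member. It held 99, 40 and 138 counts in Srebp2cKO and 99, 16 and 159 counts in Srebp2WT, or 7.27, 2.58 and 8.05 CPM in Srebp2cKO against 6.20, 1.03 and 10.8 CPM in Srebp2WT. Each genotype had 1 low library, Srebp2cKO replicate 7 and Srebp2WT replicate 3, and the highest library exceeded the lowest by 3.12-fold in Srebp2cKO and 10.4-fold in Srebp2WT. The coefficients of variation were 49.6% in Srebp2cKO and 81.2% in Srebp2WT, where genes of like level had medians of 16.1% in Srebp2cKO and 14.6% in Srebp2WT. The log2 fold change was -0.0019, with a wide 95% interval of -1.34 to 1.34 (edgeR adjusted p = 0.999).

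Bad, which survival kinases phosphorylate and so silence, had 6.90, 7.10 and 6.24 CPM in Srebp2cKO and 8.96, 6.89 and 6.90 CPM in Srebp2WT. Its log2 fold change was -0.17 (95% interval -0.55 to 0.21, edgeR adjusted p = 0.526), and 20.5% of its exons lie opposite Gpr137, which held 90 to 120 counts per library where Bad held 94 to 143. Bbc3, which encodes the p53 target PUMA, had 14.3, 11.5 and 11.3 CPM in Srebp2cKO and 11.2, 14.7 and 11.9 CPM in Srebp2WT. Its groups overlapped fully (log2 fold change -0.03, 95% interval -0.37 to 0.31, edgeR adjusted p = 0.914).

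**Figure D1:**
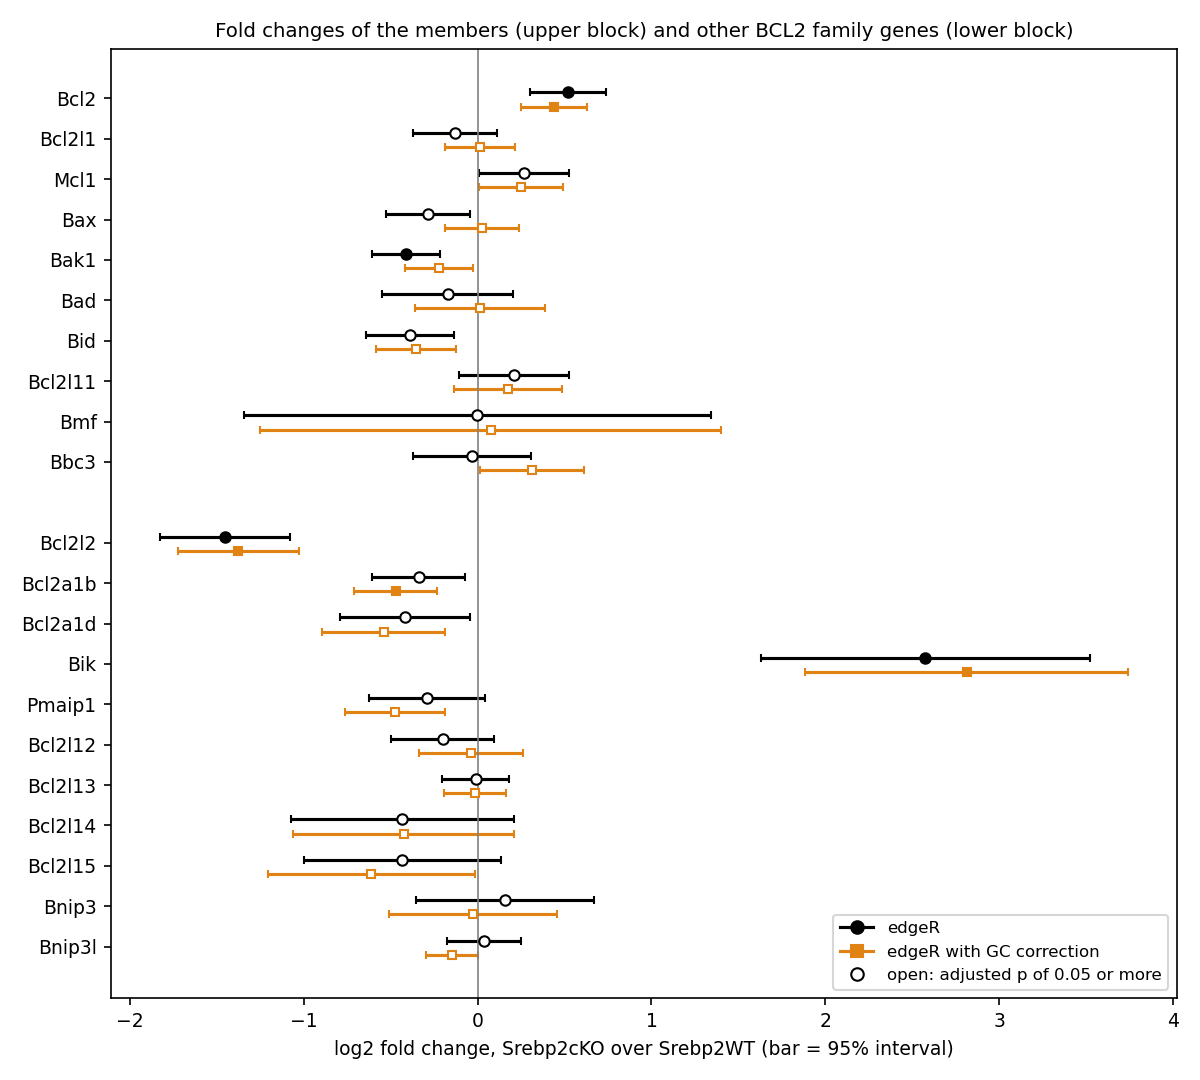
Log2 fold change of each gene, Srebp2cKO over Srebp2WT (x axis), with 95% intervals, for the 10 members above and 11 other BCL2 family genes below. Black circles are edgeR and orange squares edgeR after a GC correction, and filled symbols passed at a false discovery rate of 0.05. Bcl2 stays filled in both, Bak1 is filled only in the first, and Bcl2l2 and Bik lie far outside the members' range.

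Levels of different genes were compared per kilobase of annotated exon. Mcl1 led in both genotypes, at 281 ± 40.2 CPM per kilobase in Srebp2cKO and 234 ± 27.5 in Srebp2WT, followed by Bcl2 at 72.4 ± 7.88 in Srebp2cKO and 50.5 ± 4.33 in Srebp2WT (SD, n = 3 each). Bak1 came next at 16.1 ± 0.722 CPM per kilobase in Srebp2cKO and 21.4 ± 1.57 in Srebp2WT. Bax followed at 15.1 ± 1.66 in Srebp2cKO and 18.4 ± 1.19 in Srebp2WT, overlapping Bak1 in Srebp2cKO but not in Srebp2WT. Below them stood Bcl2l11 (11.9 ± 0.874 CPM per kilobase in Srebp2cKO, 10.3 ± 2.27 in Srebp2WT) and Bcl2l1 (7.65 ± 0.951 in Srebp2cKO, 8.37 ± 0.620 in Srebp2WT), which overlapped in Srebp2WT only. Bcl2l1 and Bbc3 overlapped in Srebp2cKO. Bbc3 and Bid did not overlap in Srebp2cKO (5.82 and 4.53 CPM per kilobase) but did in Srebp2WT (5.92 and 5.93), and Bad and Bmf were lowest in both. With the length of the longest transcript in place of all exons, Bax ranked above Bak1 in both genotypes and Bcl2l11 above Bak1 in Srebp2cKO.

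Ratios of counts within a library do not depend on the scaling between libraries, but they do carry any GC trend of a library. After the GC correction described below, the log2 fold changes behind them were 0.44 for Bcl2, -0.22 for Bak1 and 0.03 for Bax, so that the gaps to both effectors were smaller than the ratios give. Bcl2 held 17.7, 18.0 and 15.7 counts per Bak1 count in Srebp2cKO, against 8.29, 8.30 and 10.5 in Srebp2WT, a mean log2 difference of 0.93. Bcl2 over Bax was 25.6, 34.9 and 24.3 in Srebp2cKO and 15.8, 15.05 and 17.1 in Srebp2WT, a difference of 0.81. In both ratios all Srebp2cKO libraries stood above all Srebp2WT libraries. Bcl2l1 over Bcl2 was 0.0566, 0.0411 and 0.0636 in Srebp2cKO and 0.0978, 0.0781 and 0.0752 in Srebp2WT, so the groups lay apart in the other direction. Survival genes against BIM gave no such gap: Bcl2 over Bcl2l11 was 6.49, 8.17 and 6.24 in Srebp2cKO and 6.86, 4.81 and 5.54 in Srebp2WT, and Mcl1 over Bcl2l11 was 8.55, 12.5 and 9.36 in Srebp2cKO and 11.2, 9.19 and 9.06 in Srebp2WT. Both of these overlapped between genotypes. These ratios were not tested, since the genes had been chosen with results known. Of all counts in the 10 members, Bcl2 held 34.5% to 37.1% in Srebp2cKO and 28.8% to 31.8% in Srebp2WT, and Mcl1 held 49.0% to 54.1% in Srebp2cKO and 51.5% to 54.9% in Srebp2WT.

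**Figure D2:**
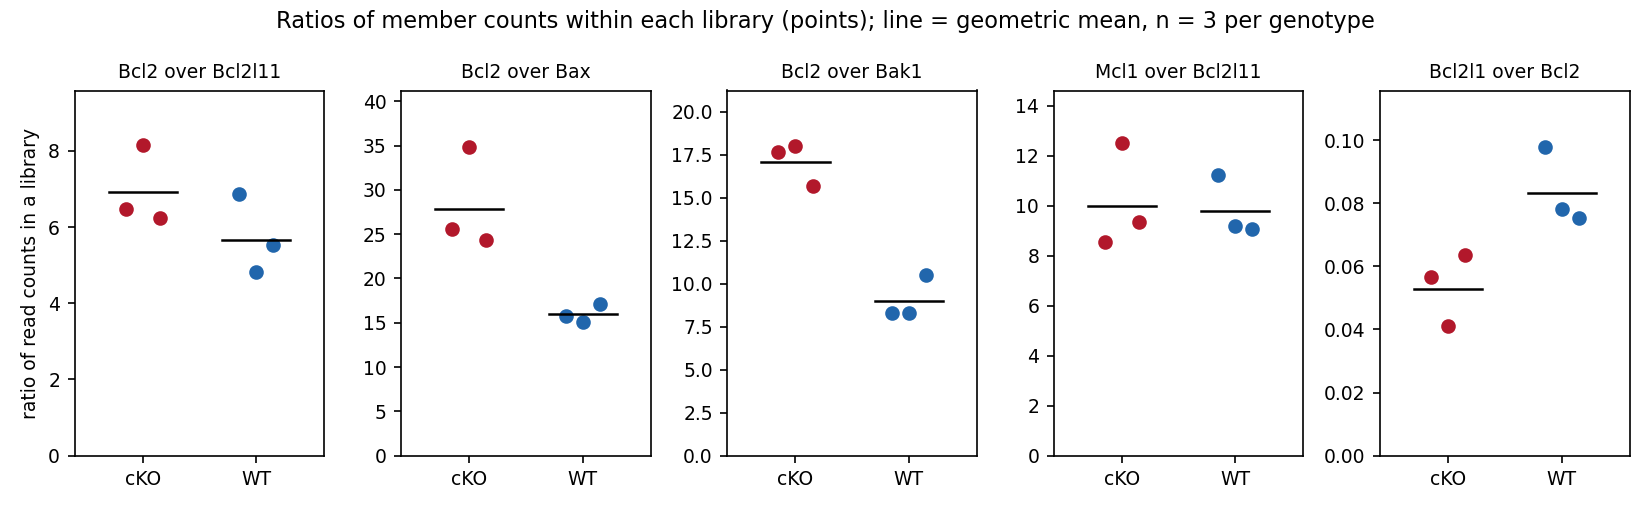
Ratio of read counts of 2 members within each library (y axis, from 0) for 5 pairs, with Srebp2cKO libraries in red on the left and Srebp2WT libraries in blue on the right. Points are libraries and lines geometric means, n = 3 per genotype. Groups lie apart for Bcl2 over Bax, Bcl2 over Bak1 and Bcl2l1 over Bcl2, and overlap for both ratios to Bcl2l11.

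Fold changes over all genes followed the GC content of transcripts, and the members span a wide range of it. Genes of the lowest GC decile had a median log2 fold change of 0.23 and those of the highest -0.26. Bcl2 (46.3% GC) stood at 0.52 where the median of its decile was 0.08. Bak1 (57.1% GC) stood at -0.41 in a decile with a median of -0.17, and Bax (63.5% GC) at -0.29 in one with a median of -0.26. The slope of log2 CPM on GC, per 10 points of GC and relative to each gene's mean, was 0.01, -0.25 and -0.12 in Srebp2cKO replicates 6, 7 and 8 and 0.15, 0.18 and 0.02 in Srebp2WT replicates 1, 3 and 5. Srebp2cKO replicate 7, with the steepest slope, held the highest Bcl2 and Mcl1 and the lowest Bcl2l1, Bax, Bid, Bcl2l11 and Bmf of its genotype, but also the highest Bak1 and Bad, both GC-rich. When this trend was removed from each library, 5.76% of all genes and 1 member were called. Bcl2 kept its call (log2 fold change 0.44, SE 0.09, edgeR adjusted p = 0.0162). With a library also left out, it was called in 2 of 6 such fits, with log2 fold changes of 0.38 to 0.52 and edgeR adjusted p-values of up to 0.0708. Bak1 lost its call under the correction (-0.22, SE 0.09, adjusted p = 0.168), Bax moved to 0.03 (adjusted p = 0.907), Bbc3 to 0.31 (adjusted p = 0.207) and Bid stayed near its value at -0.35 (adjusted p = 0.0723).

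**Figure D3:**
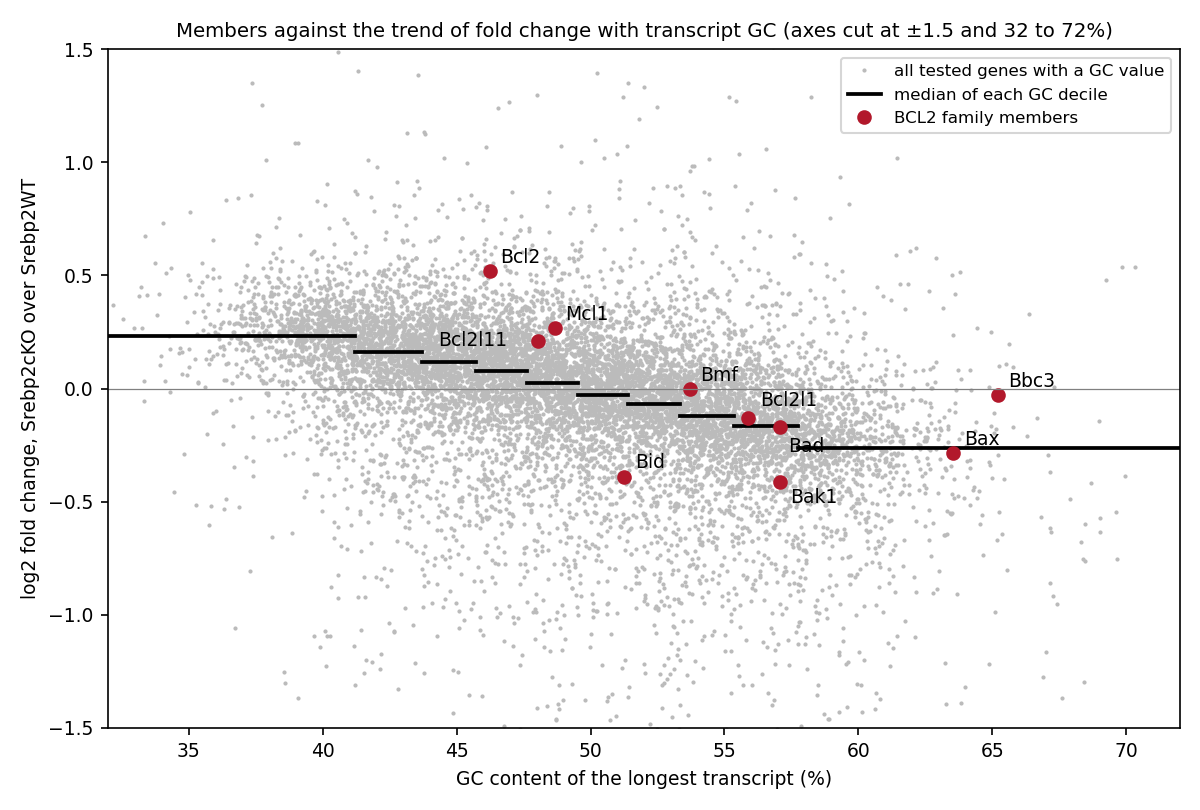
Log2 fold change, Srebp2cKO over Srebp2WT (y axis), against GC content of the longest transcript (x axis, percent) for tested genes in grey, with genes beyond the axes left out. Black lines are medians of GC deciles, from 0.23 to -0.26, and red points the members. Bcl2 lies well above its decile's line, Bak1 and Bid below theirs, and Bax on it.

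Neither called member holds the core of a sterol response element in its promoter window. Windows ran from 250 bases before to 50 bases after each RefSeq start site (GRCm38.p6), and 18 windows covered all 10 members. The core TCACNCCAC, searched on both strands, was in 0 of the 18, against 1.24% of 32851 windows of mouse genes. At so low a share, 0 of 18 does not set the members apart from other genes. A FOXO site, TGTTTAC on either strand, was in 2 of 18, against 3.65% of all windows, an E-box CACGTG in 2 of 18 (Bax and Bbc3), against 7.15%, and a STAT site TTCNNNGAA in 0 of 18, against 8.3%. These matches describe letters in a window and were not tested as sites. FOXO factors, which growth factor signals keep out of the nucleus, are textbook activators of Bcl2l11 and Bbc3, and these are the members with a match, at positions -227 and -167 from a start site. Their surroundings are shown with the match in capitals, followed by the 250 bases upstream of both called genes, in which none of the 4 motifs was found. The Bak1 start site used here lies inside the annotated gene span given above. So does the Bbc3 start site of the FOXO match within the annotated span of Bbc3 (chromosome 7, 16308393 to 16318205).
Bcl2l11, chr2:128125788-128125843, plus strand: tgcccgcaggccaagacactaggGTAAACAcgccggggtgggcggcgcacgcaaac
Bbc3, chr7:16310067-16310126, plus strand: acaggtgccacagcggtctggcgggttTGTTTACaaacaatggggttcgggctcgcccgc
Bcl2, chr1:106714291-106714540, minus strand: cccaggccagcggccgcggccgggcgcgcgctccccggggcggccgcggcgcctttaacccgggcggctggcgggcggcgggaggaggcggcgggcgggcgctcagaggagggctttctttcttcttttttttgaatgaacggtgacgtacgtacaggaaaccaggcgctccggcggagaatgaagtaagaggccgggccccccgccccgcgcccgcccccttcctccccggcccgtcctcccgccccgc
Bak1, chr17:27028628-27028877, minus strand: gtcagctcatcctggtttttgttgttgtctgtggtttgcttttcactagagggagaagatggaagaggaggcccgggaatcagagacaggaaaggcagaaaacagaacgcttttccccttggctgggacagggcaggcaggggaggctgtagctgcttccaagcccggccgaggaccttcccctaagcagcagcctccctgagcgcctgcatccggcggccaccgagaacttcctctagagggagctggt

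Transcriptional regulators of the family were read from the same fit. Of 14 tested, 2 rose and 0 fell, against 2.37% and 4.24% of all genes, with a median log2 fold change of 0.07. Klf2, a quiescence factor, stood at 301 ± 10.96 CPM in Srebp2cKO and 218 ± 25.5 CPM in Srebp2WT (log2 fold change 0.46, SE 0.09, edgeR adjusted p = 0.0203). Foxp1, another resting-state factor, stood at 494 ± 13.3 CPM in Srebp2cKO and 380 ± 22.5 CPM in Srebp2WT (log2 fold change 0.38, SE 0.07, edgeR adjusted p = 0.0202). Both calls were lost without Srebp2WT replicate 1 and without Srebp2WT replicate 3, and that of Foxp1 also without Srebp2cKO replicate 8. With the GC correction, Klf2 stood at 0.75 (edgeR adjusted p = 0.00574) and Foxp1 at 0.26 (adjusted p = 0.0371), and Foxp1 was called in 0 of 6 corrected fits that also left out a library. The correction added 2 calls to this list, Myc higher (0.35, adjusted p = 0.0378) and Nfkb1 lower (-0.30, adjusted p = 0.0138), both named after their values were seen. Among 7 genes of cytokine receptors and of their kinases Jak1 and Jak3, which sustain T cells, 1 rose and 0 fell, against 2.37% and 4.24% of all genes. The gene that rose was Il2ra, the interleukin-2 receptor alpha chain, at 920 ± 22.1 CPM in Srebp2cKO and 691 ± 11.3 CPM in Srebp2WT (log2 fold change 0.41, edgeR adjusted p = 0.0101, lost without Srebp2WT replicate 3). It stood at 0.29 with the GC correction (adjusted p = 0.0341) and was called in 1 of 6 corrected fits that also left out a library. The median of these 7 was 0.10. At an unadjusted p below 0.05 there were 6 of them, against 29.1% of all genes. Besides Il2ra, Il7r (0.35, edgeR adjusted p = 0.117) and Jak1 (0.28, 0.107) stood higher. Jak3 (-0.57, adjusted p = 0.0584), Il15ra (-0.51, 0.0727) and Il2rb (-0.24, 0.117) stood lower, all named after their values were seen. With the GC correction, 4 of the 7 had an unadjusted p below 0.05, against 2644 of 11932 genes. Il7r then stood at 0.14 (edgeR adjusted p = 0.603) and Jak1 at 0.24 (0.148). Jak3 stood at -0.30 (0.119), Il15ra at -0.55 (0.0598) and Il2rb at -0.13 (0.288).

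The changes that passed among the other family genes were larger than that of any member. Of 15 other BCL2 family genes 11 were tested, 1 rose and 1 fell, against 2.37% and 4.24% of all genes, with a median log2 fold change of -0.29. With the GC correction the median was -0.425, against -0.0033 over all genes. Of the 11, 1 then stood above 0 and 3 were called, against 5.76% of all genes. Bcl2l2, which encodes the survival protein BCL-W, had 5.80, 4.32 and 4.37 CPM in Srebp2cKO and 14.7, 12.8 and 12.0 CPM in Srebp2WT. The groups were far apart (log2 fold change -1.45, SE 0.17, edgeR adjusted p = 0.00129), and the call held in each of 22 alternative settings. It lies on chromosome 14 from 54883377 to 54888234, where 11 of 47 other tested genes within 1 Mb were called, all of them lower. Around each of the 10 members, 0 to 4 genes within 1 Mb were called, with 1 of 4 around Bcl2 and 1 of 32 around Bak1. Whether the neighbourhood has a part in the Bcl2l2 result was not tested.

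Bik, a BH3-only gene, had 31, 28 and 38 counts in Srebp2cKO and 9, 2 and 5 in Srebp2WT. All Srebp2cKO libraries stood above all Srebp2WT libraries, at 2.10 ± 0.256 CPM in Srebp2cKO and 0.344 ± 0.218 CPM in Srebp2WT (log2 fold change 2.57, SE 0.43, edgeR adjusted p = 0.00949), and this call too held in 22 of 22 settings. Bik lies on chromosome 15 from 83526862 to 83544634, 1.32 Mb from Srebf2, the targeted gene. The part of that position in the result was not tested. Bcl2a1b, 1 of the near-identical copies that encode the survival protein A1, had a level per kilobase between Bcl2 and Bak1, at 34.0 ± 5.68 CPM per kilobase in Srebp2cKO and 43.1 ± 1.505 in Srebp2WT. Its log2 fold change of -0.34 did not pass (edgeR adjusted p = 0.104), it passed after the GC correction (-0.47, adjusted p = 0.0323), and reads may be split between copies. Another copy, Bcl2a1d, stood at -0.42 (edgeR adjusted p = 0.135) and at -0.54 with the correction (0.075), named after its values were seen. Bok and Hrk had 0 counts in every library.

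Caspases and mitochondrial death genes did not pass in the main edgeR fit. Of 17 genes of the apoptosome, caspases and mitochondrial death proteins, 0 were called in that fit, against 6.61% of all genes. Some other edgeR settings called 1 or 2 of them, as given in the last section. At an unadjusted p below 0.05 there were 6 of the 17, against 29.1% of all genes. DESeq2 called 2 of the 17 (and 11.8% of all genes), and limma-voom called 0. The median log2 fold change was 0.01. Casp8, the death receptor caspase, stood at 252 ± 18.3 CPM in Srebp2cKO and 205 ± 8.75 CPM in Srebp2WT (log2 fold change 0.29, edgeR adjusted p = 0.0503). Vdac2, a mitochondrial channel that binds BAK, had a log2 fold change of 0.25 (edgeR adjusted p = 0.0843). DESeq2 called Casp8.

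Neither inhibitors of apoptosis with death receptor genes (14 tested, median 0.10) nor partners of BCL2 family proteins (21 tested, median 0.08) held a gene called in the main edgeR fit. At an unadjusted p below 0.05 there were 4 in each list, against 29.1% of all genes, and DESeq2 and limma-voom called 0 in each. The smallest p in the first list was that of Tnfrsf10b, a TRAIL receptor, with a log2 fold change of 0.48 (edgeR adjusted p = 0.0567), followed by the adaptors Traf2 (-0.28, 0.081) and Tradd (-0.42, 0.102). In the second it was Mapk8, a kinase that phosphorylates family members (0.25, adjusted p = 0.095), followed by Ywhaz, a 14-3-3 protein that holds phosphorylated BAD (0.25, 0.1), and Akt2 (-0.17, 0.143). With the GC correction the median of the first list turned to -0.033, and Tradd moved to -0.23, Mapk8 to 0.025, Ywhaz to 0.15 and Akt2 to -0.042.

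The genes closest to the called members over the 6 libraries were named by the root mean square difference of centred log2 CPM. For Bcl2 these were Actr6 (0.05), Rpl36a (0.05) and Gm27162 (0.06), and for Bak1 they were Slc5a3 (0.03), Josd2 (0.04) and Cox14 (0.04). Bmf, looked up after its values were seen, had no gene nearer than 0.42 (1700029H14Rik).

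**Figure D4:**
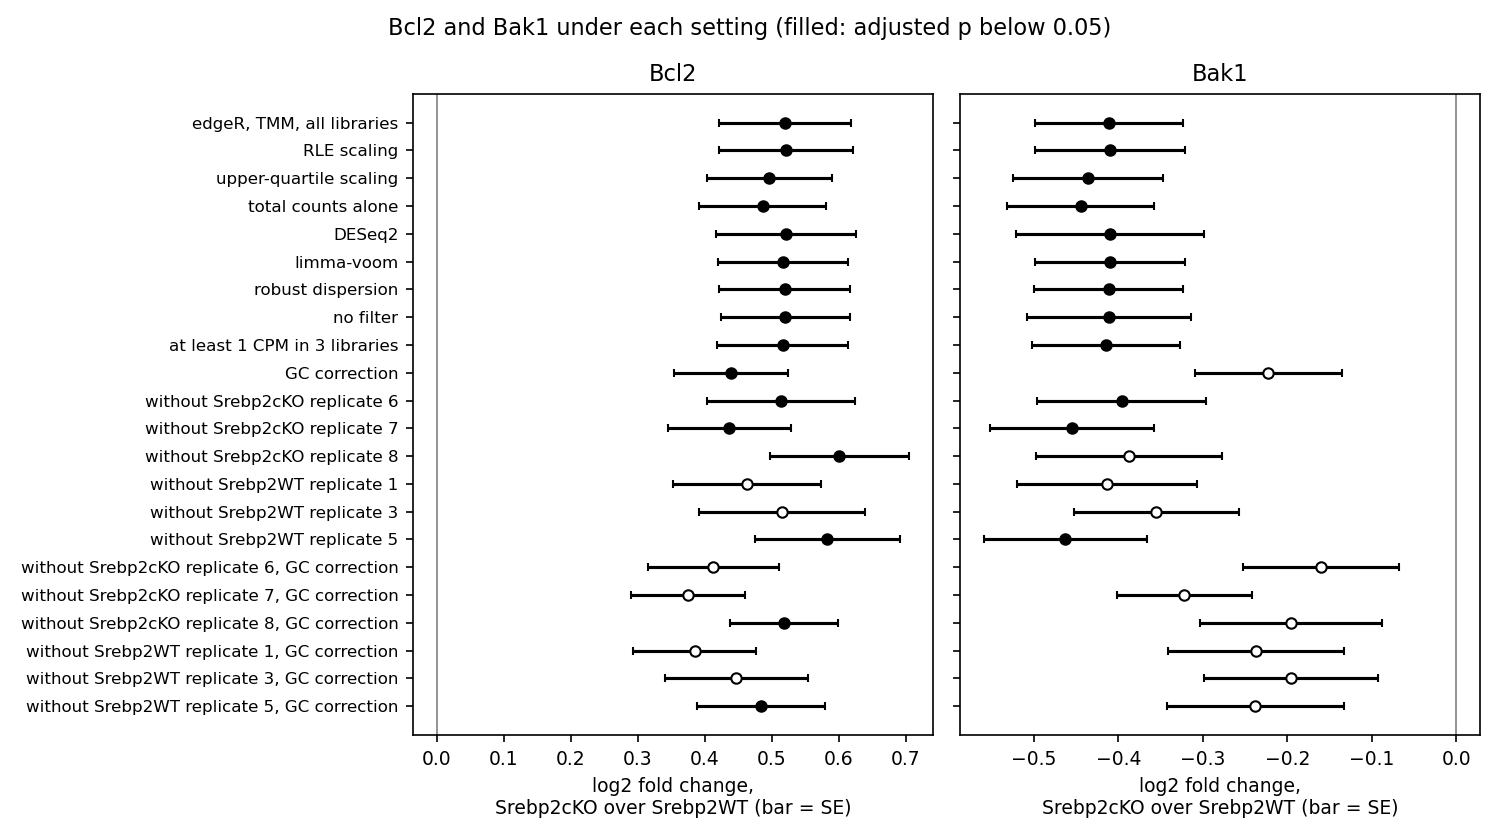
Log2 fold change, Srebp2cKO over Srebp2WT (x axis), of Bcl2 on the left and Bak1 on the right under each setting, with SE. Filled points had an adjusted p below 0.05. Bcl2 runs from 0.38 to 0.60 and Bak1 from -0.46 to -0.16, with every Bak1 point open after the GC correction.

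The libraries held 13918321 to 17249898 counts, and Srebf2 fell to 6.69% of its Srebp2WT level (12.4 ± 1.56 CPM in Srebp2cKO, 185 ± 10.9 CPM in Srebp2WT). All 8 Treg markers were detected. Over raw library totals their sum was 4319 to 4454 CPM in Srebp2cKO and 4463 to 4691 CPM in Srebp2WT. On that scale it was lower in every Srebp2cKO library (exact two-sided permutation p = 0.1). With the TMM-scaled levels used for single genes, the sums of Srebp2cKO replicate 8 and Srebp2WT replicate 3 change order, so the groups overlap. Of the 8, Il2ra was called higher and Tnfrsf18 lower (-0.39, edgeR adjusted p = 0.0438), and Ikzf2, the most abundant, had -0.26 with the groups apart (adjusted p = 0.0645). Foxp3 stood at 435 ± 26.99 CPM in Srebp2cKO and 454 ± 11.5 CPM in Srebp2WT. All marker sums use CPM over the raw library totals, with no TMM scaling. Markers of B cells summed to 25.8 to 34.5 CPM in Srebp2cKO and 56.4 to 79.5 CPM in Srebp2WT. Markers of myeloid and dendritic cells summed to 34.4 to 40.6 CPM in Srebp2cKO and 52.6 to 86.4 CPM in Srebp2WT (exact two-sided permutation p = 0.1 for each, the smallest that 3 against 3 libraries allow). Ms4a1 and Pax5 had at most 2 counts in any library and Itgax and Flt3 had 0, while Cd74 and Cybb, the most abundant of each list, both fell (log2 fold change -1.14 and -0.87), with 3 of 7 B cell and 1 of 10 myeloid genes called lower. Other genes of these lists stood higher in Srebp2cKO without passing, namely Itgam (1.07, edgeR adjusted p = 0.108) and Cd79a (0.56, adjusted p = 0.308). Fcgr3, below the filter, held 10, 16 and 9 counts in Srebp2cKO and 2, 3 and 4 in Srebp2WT. Stromal and endothelial markers summed to 217 to 231 CPM in Srebp2cKO and 168 to 181 CPM in Srebp2WT, nearly all of it Pecam1, the 1 of 7 genes called higher. Of the rest, Pdgfra had 0 counts, Cdh5 and Col3a1 at most 1 and Pdgfrb at most 2 in any library. Col1a1 held 6 to 18 counts and Col1a2 2 to 16. CD8 T and natural killer cell markers summed to 12.6 to 16.2 CPM in Srebp2cKO and 11.7 to 13.2 CPM in Srebp2WT, with 1 of 6 called lower, and red cell and platelet markers stayed at or below 0.696 CPM. The part of other cells in the Bcl2 and Bak1 results was not tested.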

How the data were processed

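The authors deposited raw counts by gene symbol in 1 table holding 6 libraries. Per the labels' protocols, a Qiagen RNeasy kit gave the RNA, and the KAPA RNA HyperPrep kit with RiboErase the libraries. Per the submitters' processing notes, HISAT2 2.2.1, Cell Ranger and the build mm10 were used, in roles not stated. No source used here names the counter, annotation or strand setting, so genes with overlapping exons or near-identical copies are uncertain.

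Genes were filtered with filterByExpr, scaled by TMM and tested with edgeR 4.0.16 (R 4.3.3) as Srebp2cKO minus Srebp2WT, with Benjamini-Hochberg adjustment over 11932 genes. The SE is the fold change divided by the square root of F. DESeq2 1.42.0, limma-voom (limma 3.58.1), other scalings and filters, leaving out each library and a loess GC correction (span 0.3) were alternatives. The fit was tested on simulated data. Pairs of libraries within a genotype differed by more than sampling noise (chi-square of at least 6.71 for each degree of freedom), so none was treated as a library deposited more than once, which does not show that they came from separate animals. Positions, exon lengths and GC came from GENCODE M21 on GRCm38, matched by symbol (95.7% of genes). Members and lists were chosen with earlier results of these data known. Beyond the members, every gene that passed in a list, or else the 3 with the smallest p, was named. Some genes that this rule would name are not reported here.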

Additional observations from a re-analysis of the deposited data

How the results depend on the processing

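Of 22 alternative settings, Bcl2 kept its direction in 22 and its call in 16, and Bak1 its direction in 22 and its call in 12. The 22 include the false discovery rate of 0.1, which reads the main fit again. A called gene keeps its call and direction there by construction, also in the tallies of Bcl2l2 and Bik. Members called were 1 with the GC correction and 0 to 3 when a library was left out, alone or with that correction. Over all genes, 789 were called, 167 to 1487 when a library was left out (1487 without Srebp2cKO replicate 6 and 1082 without Srebp2WT replicate 5, against 167 to 439 without any 1 of the others), 1404 with DESeq2, 1205 without a filter and 1893 at a false discovery rate of 0.1. With the GC correction the log2 fold change changed sign for Bcl2l1 (0.0135), Bax (0.0263), Bad (0.0159), Bmf (0.0766) and Bbc3 (0.31), and for Bmf also with limma-voom (0.39), none of them called. Leaving out libraries, alone or with the correction, gave -0.186 to 0.0643 for Bcl2l1, -0.357 to 0.12 for Bax, -0.237 to 0.141 for Bad, -0.503 to 0.809 for Bmf, -0.145 to 0.41 for Bbc3 and -0.0342 to 0.297 for Mapk8, and -0.13 to 0.15 for the log2 difference of Mcl1 over Bcl2l11. The apoptosome and caspase list had 2 calls with DESeq2, 1 with robust dispersion, 2 without a filter, 1 with at least 1 CPM in 3 libraries, 1 with the GC correction, 3 at a false discovery rate of 0.1 and 0 to 1 when a library was left out. Inhibitors and death receptors had 2 at that rate and 0 to 1 without a library, and binding partners 1 and 0 to 1. Regulators had 4 with the GC correction and 0 to 2 without a library. Cytokine receptors and their kinases had 2 with DESeq2, 2 without a filter, 3 at the looser rate and 0 to 3 without a library. The cause of these shifts was not tested. No paired analysis was possible because the genotypes share no replicate numbers. Depth limits Bik most among the genes that passed (2 to 38 counts per library).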
